A study of Mus musculus with 357 samples.

Results

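Kit, Ly6a, Slamf1, Cd48 and Cd34 encode the surface proteins by which mouse blood stem cells are usually recognised, and their transcripts were read in single sorted cells. The 5 genes were taken by name from the 96 assays of the study, with no threshold on a measured value but with earlier results of these data known, and all 5 were followed through all 357 cells. Every cell was a single hematopoietic stem cell (HSC) from the bone marrow of mice carrying the Col1a1-tetO-H2B-mCherry allele, a fluorescent histone under a tetracycline-responsive promoter at the Col1a1 locus. By surface protein, all cells were lineage-negative, Sca1-positive, c-kit-positive, CD48-negative and CD150-positive. By the labels the groups differed in the chase, the time between H2B-mCherry labelling and isolation, which was 2 weeks for plates of 90 and 93 cells and 5 weeks for plates of 91 and 83 cells. The allele that drives the transgene, the number of mice and their ages were facts not given in the sources used here. The mCherry signal of each cell was not used here.

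Kit, Ly6a, Slamf1 and Cd48 belong to the sort itself. Kit encodes c-kit, the receptor for stem cell factor, on which HSCs depend for maintenance. Ly6a encodes Sca1, a GPI-anchored protein of the Ly6 family. Slamf1 encodes CD150 and Cd48 encodes CD48, both of the SLAM family of immune receptors. In adult mouse marrow CD150 marks HSCs, whereas CD48 marks many of the more committed progenitors. Cd34 encodes a sialomucin found at low levels, if at all, on many long-term HSCs of adult mice and more often on short-lived and multipotent progenitors, and it was not a criterion of the sort. The sort reads protein on the surface and the assay reads RNA, so a cell sorted as positive need not hold a measurable amount of the transcript at that moment.

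The promoter windows of Slamf1, Cd48 and Cd34 are printed because all 3 genes lie on chromosome 1, and Cd48 was detected far less often than the others. Over all cells the shares were 64.15% for Slamf1, 68.63% for Cd34 and 1.40% for Cd48. RefSeq places the Slamf1 window (GRCm38.p6, chr1:171766882-171767181, plus strand) 85.1 kb beyond that of Cd48 (chr1:171681742-171682041, plus strand). The Cd34 window is at chr1:194938571-194938870 on the plus strand. Each runs 5′ to 3′ over 300 bases around the gene's start. Capitals mark matches to AGATAA, bound by GATA factors, GGAAGT, bound by ETS factors, TGTGGT, bound by RUNX factors, or TATAAA, the core of the TATA box, each searched on both strands.
Slamf1: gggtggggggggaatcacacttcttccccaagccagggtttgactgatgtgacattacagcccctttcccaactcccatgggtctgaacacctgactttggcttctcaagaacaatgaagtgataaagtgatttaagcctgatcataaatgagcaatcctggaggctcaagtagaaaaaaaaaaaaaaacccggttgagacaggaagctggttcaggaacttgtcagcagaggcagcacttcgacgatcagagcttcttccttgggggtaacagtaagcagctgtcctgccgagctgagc
Cd48: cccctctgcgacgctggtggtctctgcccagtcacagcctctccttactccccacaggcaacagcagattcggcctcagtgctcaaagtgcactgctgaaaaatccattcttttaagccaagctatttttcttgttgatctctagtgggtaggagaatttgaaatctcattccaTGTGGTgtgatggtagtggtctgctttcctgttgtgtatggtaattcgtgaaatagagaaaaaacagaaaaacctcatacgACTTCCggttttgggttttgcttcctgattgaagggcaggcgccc
Cd34: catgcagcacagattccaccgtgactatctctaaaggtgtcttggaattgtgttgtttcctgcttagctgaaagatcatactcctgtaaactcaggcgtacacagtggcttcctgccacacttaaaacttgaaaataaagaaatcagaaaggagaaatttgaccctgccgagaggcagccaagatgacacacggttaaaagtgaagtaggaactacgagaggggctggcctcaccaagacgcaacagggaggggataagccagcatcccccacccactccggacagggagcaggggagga
The Cd48 window held TGTGGT on the plus strand. The ETS letters lie on its minus strand and therefore read ACTTCC in the line above. The Slamf1 and Cd34 windows held none of the 4 motifs, nor did either of the 2 Kit windows on chromosome 5. Across all 32851 RefSeq windows of this length, 23.8% held GGAAGT, 16.8% TGTGGT, 13.6% TATAAA and 11.2% AGATAA, so such matches are common. The Kit window was 69% G and C with 20 CpG, while those of Slamf1, Cd48 and Cd34 were 49, 47.3 and 50% with 4, 7 and 7 CpG. The median window had 52.7% and 7 CpG.

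Each value is a threshold cycle (Ct), the cycle of quantitative PCR at which a product becomes visible, and each cycle earlier stands for about 1 doubling of template. A transcript was called detected at Ct 25 or below, and a product beyond Ct 18 is called late here. The dye, EvaGreen, binds any double-stranded DNA, so a late product can be non-specific. No animal is named in the labels, so each chase time is 1 sample, no test between times was made, and the plates may be technical repeats. Intervals are 95% and cover counting error only. Cells had 54.6 ± 5.36 (SD over cells) of the 96 assays detected at 2 weeks and 58.8 ± 5.71 at 5 weeks. The mean Ct of 13 reference assays, each found in 95% or more of the cells of every plate, was 13.47 ± 0.54 and 12.99 ± 0.64. The 5-week cells thus gave earlier products in general, and each plate held 1 chase time, so plate and time cannot be told apart. To check the sort, 15 genes of mature blood and 9 of endothelial or stromal cells were listed, but 0 of them were among the assays.

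The transcripts of the sort genes were not equally present. Kit was found in nearly every cell at both times, Ly6a and Slamf1 in fewer cells after the longer chase, Cd34 in more, and Cd48 in almost none. Kit gave a product in 90 of 90 and 91 of 93 cells at 2 weeks, and in 91 of 91 and 82 of 83 at 5 weeks. Its shares were 98.9% (interval 96.1 to 99.9%) and 99.4% (96.8 to 99.99%), a difference of 0.52 percentage points (-2.21 to 3.36), with plates overlapping.

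Ly6a was detected in 80 of 90 and 87 of 93 cells at 2 weeks and in 67 of 91 and 60 of 83 at 5 weeks. Its share was 91.3% (86.2 to 94.9%) and 73% (65.7 to 79.4%), so 47 of the cells sorted as Sca1-positive at 5 weeks gave no Ly6a product, against 16 at 2 weeks. The difference was -18.3 points (-26.0 to -10.4), and both 5-week plates lay below both 2-week plates, with plate-to-plate differences from -21.3 to -15.3. Of all 96 assays, 7.29% were lower at 5 weeks with plates apart in this way and 42.7% were higher, so a lower share was the less common direction. Ly6a had the second largest loss among the 96 assays, whose median difference was 2.85 points.

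Slamf1 had the loss next in size. It was detected in 67 of 90 and 65 of 93 cells at 2 weeks and in 47 of 91 and 50 of 83 at 5 weeks, or 72.1% (65 to 78.5%) and 55.7% (48 to 63.3%). The difference was -16.4 points (-25.9 to -6.43). Its 5-week plates, at 51.6 and 60.2%, stood further from each other than the 2-week plates at 74.4 and 69.9%, and the closest plates differed by -9.65 points.

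Cd48, the transcript of the protein selected against, gave a product in 1, 1, 1 and 2 cells on the 4 plates, 1.40% of all cells (0.456 to 3.24%). The 5 products came at Ct 21.4 and 21 at 2 weeks and at 21.85, 21.43 and 21.61 at 5 weeks. All were late and lay within a single cycle. The 5 cells were detected for Kit and Cd34, 3 of them for Ly6a and 3 for Slamf1. They had 55 to 63 assays detected and a reference Ct of 12.21 to 13.19. Cells of the same plate with a later reference Ct numbered 84 of 90 and 83 of 93 on the 2-week plates. At 5 weeks they numbered 48 of 91 on plate 1, and 31 and 79 of 83 on plate 2. The 5 cells were thus not all early for their plate. Whether these late products are specific was not tested.

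Cd34 went the other way from Ly6a and Slamf1. It was detected in 55 of 90 and 56 of 93 cells at 2 weeks and in 71 of 91 and 63 of 83 at 5 weeks. The share was 60.7% (53.2 to 67.8%) and 77% (70 to 83%), a difference of 16.4 points (6.75 to 25.5), with every 5-week plate 14.8 to 17.8 points above every 2-week plate. The plates of each time differed by little, 61.1 and 60.2% against 78 and 75.9%. With 42.7% of assays higher with plates apart, this direction was common, and Cd34 ranked 14th from the largest gain.

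**Figure D1:**
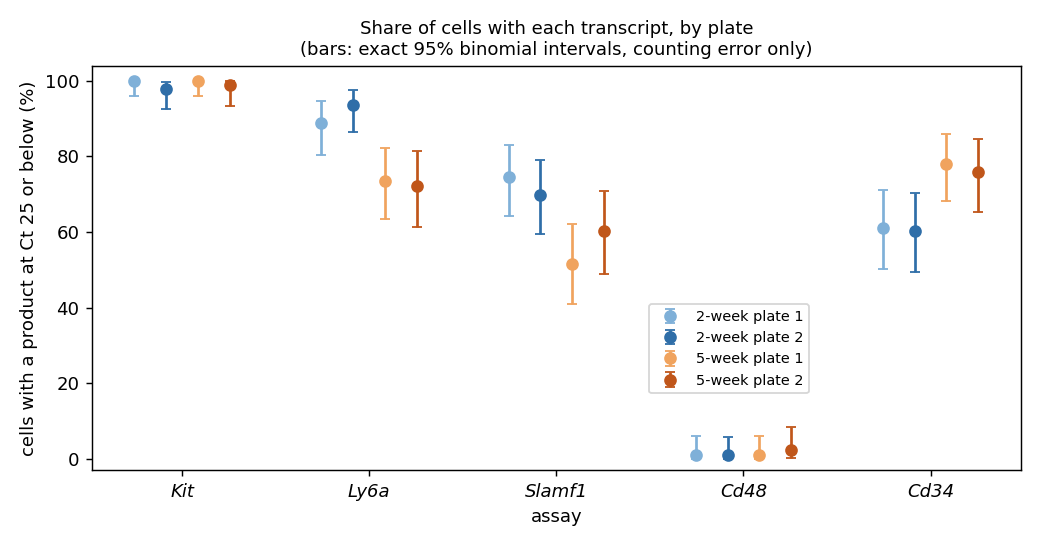
Share of cells (percent) with a product at Ct 25 or below for Kit, Ly6a, Slamf1, Cd48 and Cd34, 1 point per plate, blue for 2 weeks and orange for 5 weeks, bars being exact 95% binomial intervals. Kit is near 100% and Cd48 near 0 on every plate, the 5-week points of Ly6a (73.6 and 72.3%) and Slamf1 (51.6 and 60.2%) lie below those of 2 weeks, and those of Cd34 (78 and 75.9%) lie above.

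**Figure D2:**
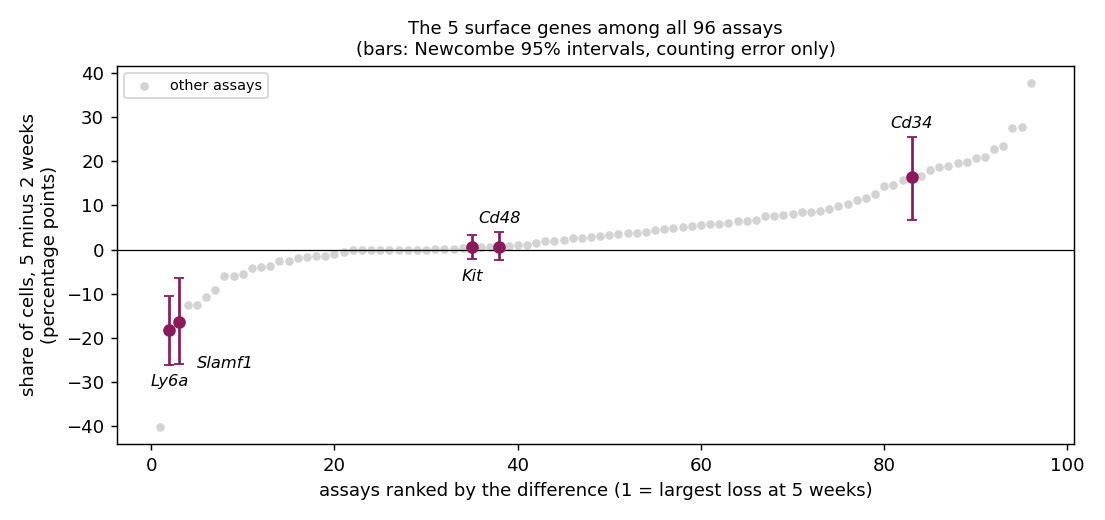
Difference in the share of cells (5 minus 2 weeks, percentage points) for all 96 assays in order, the 5 surface genes in colour with Newcombe 95% intervals and the other assays in grey. Ly6a and Slamf1 take the places after the largest loss, Kit and Cd48 lie near 0, and Cd34 is 14th from the largest gain.

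The earlier products at 5 weeks moved with these shares, so the differences were also fitted over cells with each cell's reference Ct as a covariate. The differences were then -14.0 points for Ly6a (-18.3 without the covariate), -22.2 for Slamf1 (-16.4) and 11.4 for Cd34 (16.4). With the number of other detected assays as the covariate they were -18.7, -21.3 and 13.1 points. The losses of Ly6a and Slamf1 ran against the general gain in detected assays, and the gain of Cd34 ran with it. With the reference Ct as covariate the loss of Ly6a shrank while that of Slamf1 grew. The part of template amount in these differences was not tested.

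Single cells carried the transcripts in many combinations. Of 32 possible combinations of the 5 genes, 14 occurred, and the 4 most frequent held 292 cells (81.8%). The full set without Cd48 (Kit, Ly6a, Slamf1 and Cd34) was the most frequent, in 34, 32, 26 and 23 cells on the 4 plates, 36.1% of the 2-week and 28.2% of the 5-week cells. Next came Kit with Ly6a and Cd34 but without Slamf1, in 16, 21, 29 and 19 cells (20.2 and 27.6%). For the latter the plates of the 2 times nearly met, at 22.6% on 2-week plate 2 and 22.9% on 5-week plate 2.

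The combination of Kit, Ly6a and Slamf1 without Cd34 separated the times more widely. It is the transcript counterpart of the CD34-negative HSC phenotype and was seen in 24 and 24 cells at 2 weeks and in 8 and 12 at 5 weeks, 26.2 and 11.5% of cells. Counted whatever the state of Kit and Cd48, cells with Ly6a and Slamf1 and without Cd34 numbered 50 and 20, a difference of -15.8 points (-23.7 to -7.67). The product of the single shares on each plate gave 47.35 and 16.31 such cells. The shares of the single genes thus already held a difference in this direction. Kit with Slamf1 and Cd34 but without Ly6a was seen in 3, 2, 6 and 13 cells, 2.73 and 10.9%, with 5-week plate 2 holding most of the 5-week cells.

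Cells with neither Ly6a nor Slamf1 were found mostly after the longer chase. They numbered 1 and 0 at 2 weeks and 12 and 9 at 5 weeks, or 0.546% (0.0138 to 3.01%) and 12.1% (7.63 to 17.9%). The difference was 11.5 points (6.78 to 17.2). At 5 weeks, 6 cells had Kit as the sole transcript of the 5 genes, and 0 of the 2-week cells did, which allows a share of up to 1.64% when 3 counts are taken as the limit and 2.00% by the exact interval. At 5 weeks the product of the single shares on each plate gave 20.75 cells with neither transcript, against the 21 seen. At 2 weeks it gave 4.36 against 1.

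The transcript pattern that copies the sort gate was Kit, Ly6a and Slamf1 detected and Cd48 not. It was met by 58 of 90 and 56 of 93 cells at 2 weeks, 62.3% (54.8 to 69.3%), and by 34 of 91 and 35 of 83 at 5 weeks, 39.7% (32.3 to 47.3%). All of these cells had been sorted by protein for that phenotype. The difference was -22.6 points (-32.3 to -12.3), and both 5-week plates (37.4 and 42.2%) lay below the 2-week plates (64.4 and 60.2%). Ly6a and Slamf1 made up this difference, since Kit was missing in only 3 cells and Cd48 present in only 5.

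The 3 cells without a Kit product all had Ly6a and Slamf1. The pair on 2-week plate 2 had 47 and 50 assays detected, below the plate mean of 53.7 ± 5.36 (SD over cells). Their reference Ct was 13.62 and 13.66, close to the plate mean of 13.44. The cell on 5-week plate 2 had 56 assays, against a plate mean of 57.8 ± 6.07. Its reference Ct was 14.62, and only 2 of the 83 cells of that plate were later. Counting Kit, Ly6a, Slamf1 and Cd34 alone, all 4 were found in 36.6% of the 2-week and 28.7% of the 5-week cells, 3 in 49.7 and 51.1%, and 2 in 13.7 and 16.7%. So most cells at either time lacked at least 1 of the 4.

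**Figure D3:**
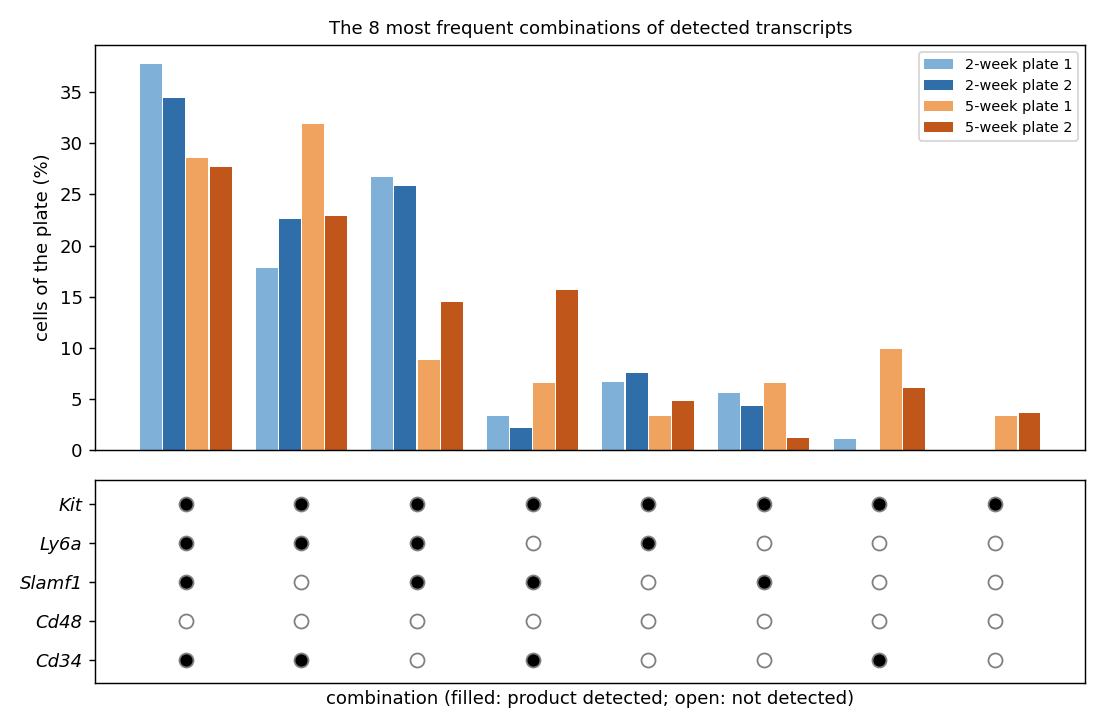
The 8 most frequent combinations of detected transcripts, as bars of the percent of cells on each plate, with filled circles below for a detected and open circles for an undetected gene. The bars for Kit, Ly6a and Slamf1 without Cd34 are higher at 2 weeks (26.7 and 25.8%) than at 5 weeks (8.79 and 14.5%), and the bars for cells with neither Ly6a nor Slamf1 are almost wholly from 5 weeks.

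Slamf1 was less frequent in cells with Cd34 than in cells without it, although the most frequent combination held both. Slamf1 was detected in 69.1% of Cd34-detected against 82.9% of Cd34-undetected cells on 2-week plate 1, and in 62.5 against 81.1% on 2-week plate 2. On the 5-week plates the shares were 46.5 against 70% and 58.7 against 65%. Slamf1 was thus less frequent beside Cd34 on all 4 plates, by -6.27 to -23.5 points, with a mean of -15.5. Of 1431 pairs among 54 assays of intermediate frequency, 6.5% were less often detected together on all 4 plates, while 223 pairs were more often together. In cells with lower reference Ct the mean was -20.5 points with 4 of 4 plates below 0, and in cells with higher reference Ct it was -16.1 with 3 of 4.

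Relative to the reference assays, Slamf1 in detecting cells ran in the same direction. Among Slamf1-detected cells, the level, defined as a cell's reference Ct minus its Ct for the gene in log2 units, was -2.85 ± 1.10 (SD, n = 38 cells) with Cd34 and -2.37 ± 0.91 (n = 29) without it on 2-week plate 1. On 2-week plate 2 it was -2.75 ± 0.73 (n = 35) and -1.96 ± 0.79 (n = 30). The 5-week differences were -0.60 and -0.30, so the Slamf1 level was lower beside Cd34 on every plate. The gap was less than 1 SD between cells except on 2-week plate 2, where it was -0.79, about as large as the SD. All 6 late Slamf1 products were in Cd34-detected cells, and the gaps without them were not computed. Over all cells, the reference Ct was also earlier with Cd34 than without it. The 4 plates gave 13.42 against 13.65, 13.41 against 13.48, 12.83 against 13.02 and 13.07 against 13.29. An earlier reference Ct lowers the level by its definition. The Ly6a level was also lower in Cd34-detected cells on every plate. The gaps were -0.11 and -0.65 at 2 weeks and -0.86 and -0.57 at 5 weeks, against SDs of 1.06 to 2.35. They include the 6 late Ly6a products, 1 at 2 weeks and 5 at 5 weeks, all of them in Cd34-detected cells. How large the Ly6a gaps are without these products was not tested.

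For Ly6a the pairing differed between the times. At 2 weeks, 15 of the 16 cells without Ly6a had Slamf1 (93.8%), against 70.1% of the cells with it. At 5 weeks the shares were 55.3% (26 of 47) and 55.9%. The 16 cells at 2 weeks also had an earlier reference Ct, 12.97 against 13.52, and 54.8 against 51 other assays detected, whereas the 5-week cells had 12.94 against 13.01 and 54.4 against 56.3. The part of template amount in the 2-week pattern was not tested. Between Ly6a and Cd34 no direction held over the plates, since Ly6a was more frequent beside Cd34 on 3 plates (by 5.19, 7.24 and 23.9 points) and less frequent on 5-week plate 2 (by -10.2). The mean of 6.54 points was 0.76 without 5-week plate 1 and 12.1 without 5-week plate 2.

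**Figure D4:**
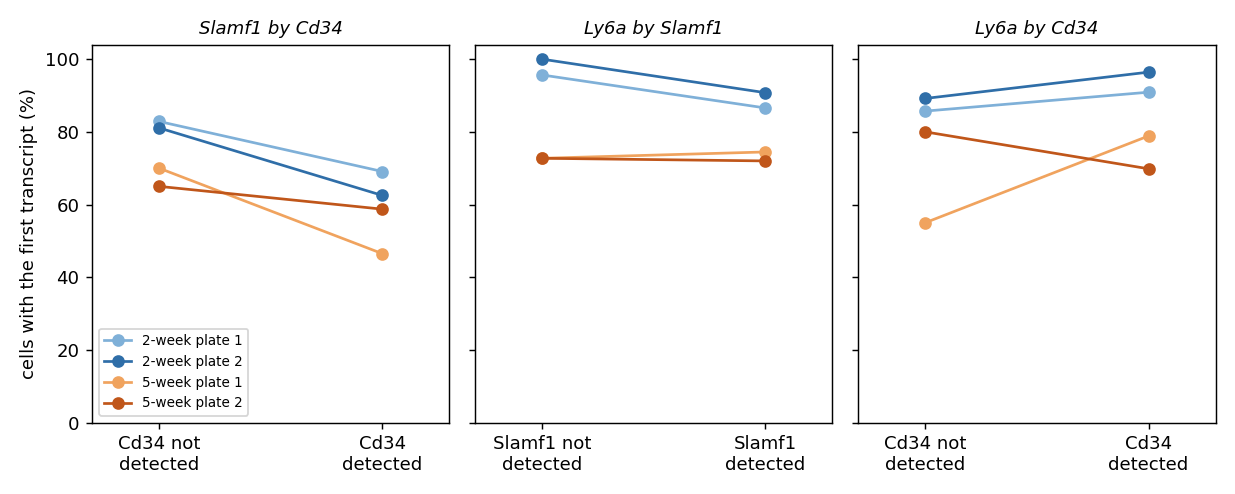
Share of cells (percent) with one transcript among cells without (left) and with (right) another, 1 line per plate, blue for 2 weeks and orange for 5 weeks. All 4 lines for Slamf1 by Cd34 go down, those for Ly6a by Slamf1 go down at 2 weeks and are nearly flat at 5 weeks, and those for Ly6a by Cd34 run in both directions.

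The spread of Ct among detecting cells differed between the genes. Ct values of different assays cannot be ranked as amounts of RNA, since each primer pair has its own efficiency, so each gene is compared with itself. Kit ran from Ct 10.20 to 17.46, with medians of 13.15 and 13 on the 2-week plates and 12.22 and 12.49 on the 5-week plates. Its SD was 0.87 to 1.06 cycles per plate, and no product was late. Within plates its SD of 0.98 ranked 16th from the smallest of 80 assays, whose median SD was 1.20.

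Ly6a ran over a wider span, from Ct 11.22 to 24.36. Its medians were 13.50 and 13.30 at 2 weeks and 14.39 and 14.34 at 5 weeks. The whole distribution lay about 1 cycle later at 5 weeks, with quartiles of 12.46 and 14.29 at 2 weeks and 13.36 and 15.21 at 5 weeks. Of the 54 products before Ct 12.5, 46 were from 2-week cells. The SD per plate was 1.31 and 1.53 at 2 weeks and 2.25 and 1.72 at 5 weeks, but this rested on 6 late products (0, 1, 3 and 2 per plate), which began at Ct 19.06 after a gap from 17.36. Without them the SDs were 1.31, 1.23, 1.16 and 1.24. The main distribution of Ly6a ended sharply too. Of 294 products, 16 fell between Ct 16 and 16.5, 0 in the next interval of the same width and 4 in the one after it.

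Slamf1 ran from Ct 13.70 to 19.24 with medians of 16.10, 15.64, 16.14 and 15.98, so the cells that had it at 5 weeks gave it at nearly the same cycle. Its SDs were 1.00, 0.88, 1.14 and 1.00. Its distribution ended sharply: 47 of 229 products fell between Ct 16.5 and 17, 21 in the next interval of the same width, and 2 in the one after it. A further 6 were late, 1 at 2 weeks and 5 at 5 weeks. Where the distribution ends next to a peak, some cells without a product may have held the transcript below what the assay reads, and a lower amount per cell and fewer cells with the transcript cannot be told apart.

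Cd34 ran from Ct 11.07 to 23.82, with medians of 14.79 and 14.52 at 2 weeks and 14.05 and 14.02 at 5 weeks. It also had an edge, with 37 of 245 products between Ct 15.5 and 16, 13 in the next interval and 2 in the one after it. Its SDs were 1.17, 1.83, 2.28 and 1.25, and without its 5 late products (2 on 2-week plate 2 and 3 on 5-week plate 1) they were 1.17, 1.26, 1.36 and 1.25. Within plates, the SDs of Ly6a (1.71) and Cd34 (1.73) ranked 62nd and 64th of 80 from the smallest, and that of Slamf1 (1.00) ranked 18th.

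**Figure D5:**
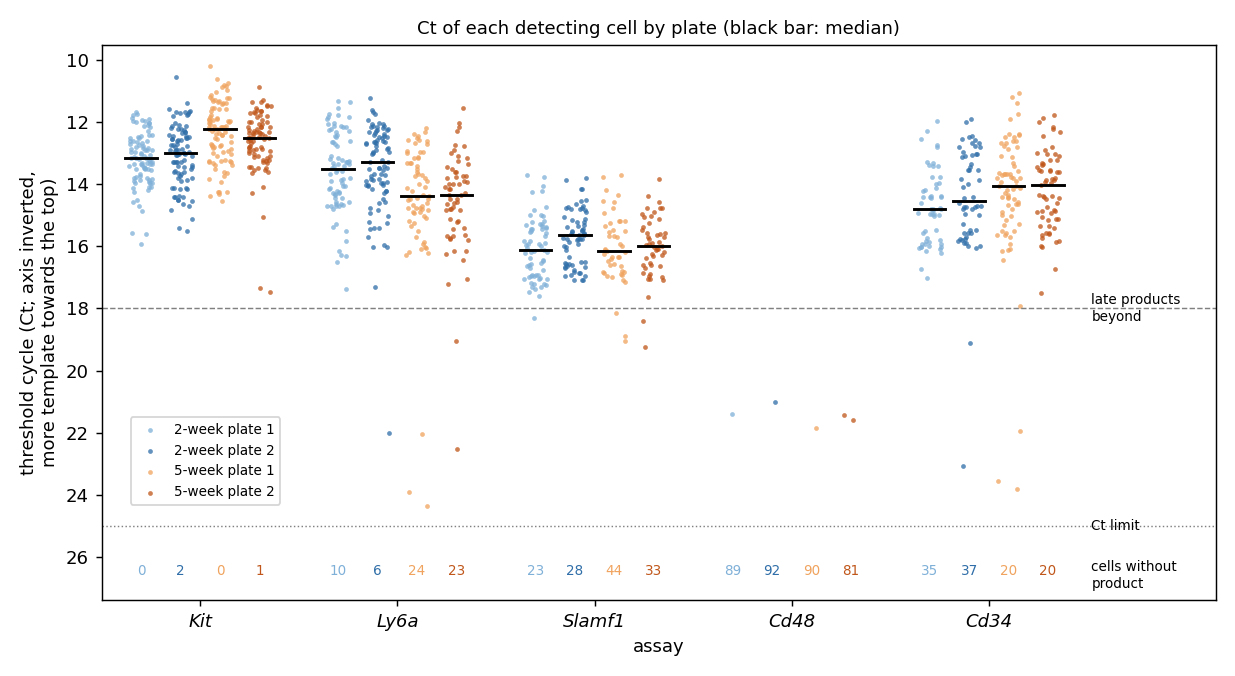
Threshold cycle of every detecting cell (axis inverted, so that more template is towards the top) for the 5 genes by plate, black bars at the medians, numbers for cells without a product, lines at the Ct limit of 25 and at Ct 18. The Ly6a medians lie near 13.4 at 2 weeks and near 14.4 at 5 weeks, the late products of Ly6a and Cd34 stand apart from the main clouds, and all 5 Cd48 products lie beyond Ct 18.

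Levels were compared next, which sets each cell's Ct against its reference Ct. The 80 assays with 10 or more detecting cells on every plate had a median difference of -0.12. Of them, 32.5% lay higher at 5 weeks with plates apart and 43.8% lay lower. The Ly6a level was -0.03 ± 1.56 (SD over 80 and 87 detecting cells) in the 2-week plates and -1.57 ± 2.04 (67 and 60) in the 5-week plates. It differed by -1.54, and pairs of plates differed by -1.69 to -1.37. So Ly6a was detected in fewer cells and its level was lower in the detecting cells, by about 1 SD between 2-week cells. Without late products the difference was -1.27, and without centring on the references it was -1.02, with plates apart each time. Whether a lower amount per cell accounts for the cells without a Ly6a product was not tested.

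The Kit level was 0.34 ± 0.83 (n = 90 and 91) and 0.50 ± 0.73 (n = 91 and 82), a difference of 0.16 with plates apart that was small beside the spread between cells and was 0.65 without centring. That of Slamf1 was -2.52 ± 0.96 (n = 67 and 65) and -3.06 ± 1.06 (n = 47 and 50), and it differed by -0.55 (-0.83 to -0.27 between pairs of plates). The Slamf1 difference depended on the centring, at -0.13 without centring and -0.17 against Actb and Gapdh, with plates overlapping in both. That of Cd34 was -1.19 ± 1.58 (n = 55 and 56) and -1.36 ± 1.74 (n = 71 and 63), a difference of -0.17 with plates overlapping, and it was 0.31 without centring and 0.27 against Actb and Gapdh, with both 5-week plates higher. It was 0.07 without 5-week plate 1, -0.38 without 5-week plate 2, -0.32 without 2-week plate 1 and -0.02 without 2-week plate 2. So the direction of the Cd34 level depended on the scale and the plates, unlike that of its share.

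Across cells, the Ct of each gene was set against the other assays by Spearman's rho within plates, undetected reactions being placed at the limit, for 81 assays and 83 to 93 cells a plate. These are descriptions without a test, since all assays of a cell share its template and depth. Kit and Cd34 were the only pair among the 4 genes with rho above 0 on all plates (0.17 to 0.35), but with centring the range was -0.03 to 0.32. Slamf1 and Cd34 had rho below 0 on all plates, from -0.35 to -0.10 as deposited and from -0.45 to -0.11 with centring. Among cells with both products, 33 to 38 a plate, the rho of Slamf1 and Cd34 took both signs, at -0.25 to 0.14. For the other pairs of the 4 the plates gave both signs.

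Kit was most like assays found in nearly every cell. Its highest were CDK4, a cell cycle kinase (0.40 to 0.45), Actb, a cytoskeletal actin (0.39 to 0.55), and Ldb1, an adaptor of LIM-domain factors (0.35 to 0.53). With each cell centred on its reference Ct, those of CDK4 (-0.20 to 0.13) and Actb (-0.08 to 0.10) took both signs, and that of Ldb1 was 0.04 to 0.30. CDK4, Actb and Ldb1 are themselves among the references.

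Ly6a was most like mettl7a1, a methyltransferase-like gene (0.34 to 0.44, and 0.41 to 0.51 with centring), then Hk3, a hexokinase (0.19 to 0.38), and Hlf, an HSC transcription factor (0.18 to 0.42, and 0.26 to 0.55 with centring). It was least like CDK6, a kinase of the G1 phase (-0.40 to -0.25), with Gata1, the erythroid and megakaryocytic factor (-0.40 to -0.18, but -0.23 to 0.13 with centring), among its lowest. Among cells with both products, 49 to 78 a plate, the rho of Ly6a and CDK6 took both signs (-0.36 to 0.07). Counted in this way, mettl7a1 (0.17 to 0.51), Hk3 (0.03 to 0.30, 21 to 28 cells) and Hlf (0.10 to 0.39) stayed above 0. Hlf is itself among the references used for the centring. The share of cells with mettl7a1 was 18.6 points higher at 5 weeks, opposite in direction to Ly6a, while within each plate their values ran together.

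Slamf1 was most like vwf, which encodes von Willebrand factor of megakaryocytes and platelets (0.34 to 0.45, and 0.34 to 0.40 with centring), then Zfpm1, the GATA cofactor FOG1 (0.29 to 0.42). Its lowest were Cd34, Flt3, a receptor of multipotent and lymphoid progenitors (-0.34 to -0.09, but -0.37 to 0.05 with centring), and Csf2rb, a cytokine receptor chain (-0.19 to -0.06, but -0.25 to 0.14 with centring). Cd34 in turn was most like Flt3 (0.25 to 0.49, and 0.22 to 0.51 with centring), CDK6 (0.23 to 0.36) and Actb (0.23 to 0.38). It was least like Mllt3, a chromatin reader of HSCs (-0.58 to -0.22), Cdkn1c, which encodes the cell cycle inhibitor p57 (-0.36 to -0.16), and vwf (-0.43 to -0.14). Thus vwf was among the highest for Slamf1 and the lowest for Cd34, and its rho kept these signs with centring on all plates (-0.43 to -0.25 for Cd34). Among cells with both products, 28 to 30 a plate for Slamf1 and 11 to 34 for Cd34, its rho took both signs, at -0.05 to 0.40 and -0.63 to 0.26.

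Other surface receptors give the setting. Of 23 receptors and adhesion molecules of stem and progenitor cells listed, 8 were measured, of which 3 were higher at 5 weeks with plates apart, 1 was lower and 4 overlapped, with a median difference of 5.19 points. Over all 96 assays 42.7% were higher and 7.29% lower in this way, so these counts are no result about receptors. TEK, the angiopoietin receptor Tie2, was detected in 47 and 64.9% of cells, a difference of 17.9 points that was 16.6 without late products. Itga2b, which encodes CD41, was detected in 39.9 and 51.1%, a difference of 11.3 points that was 7.04 without the 86.4% of its products that were late, and Epor, the erythropoietin receptor, in 21.3 and 29.9%. Csf1r, a receptor that guides macrophage development, was detected in 14.8 and 2.30%, but 77.4% of its products were late and without them its difference was 0.66 points. Flt3, at 47 and 47.1% with plates overlapping, differed by -15.4 points without late products. Ly6a and Slamf1 had few late products, and their differences with late products left out were -20.6 and -18.7 points.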

How the data were processed

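The authors deposited threshold cycles (Ct), not normalized, for 96 Delta Gene assays in each cell, with 999 for a reaction without product. Per the labels' protocols, single cells were sorted into lysis buffer, reverse transcribed, preamplified for 22 cycles, diluted and read with EvaGreen in 30 cycles on a BioMark HD. The software and threshold behind the Ct, and the primers, were not given in the sources used here. Cross-reading of related Ly6 genes was not tested. Wells without a cell were not analysed here.

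Wells needed 20% of assays detected, and 0 were removed. No identical cells were found. Reference assays excluded Kit because it is one of the 5 genes. Shares carry Clopper-Pearson intervals and their differences Newcombe intervals. Plates were called apart where the 5-week pair lay wholly above, or wholly below, the 2-week pair. Named assays were, for each gene, among the 3 with the highest and the 3 with the lowest rho on the weakest plate, and the 4 measured surface receptors with the largest difference in share. The genes and lists were chosen with earlier results of these data known. One assay among these is not reported here. The differences in share and level, joint detection and the calling of plates apart were tested on simulated data, and the other steps were not. Promoter windows came from RefSeq (GRCm38.p6), which holds none for Ly6a in the table used here. Python 3.11.15, pandas 2.3.3, numpy 2.4.6, scipy 1.17.1 and statsmodels 0.14.6 were used.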

Additional observations from a re-analysis of the deposited data

How the results depend on the processing

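The differences in share of Ly6a, Slamf1, Cd34 and the pattern that copies the sort gate kept their direction and moved by less than their intervals with any product, Ct 23 or Ct 18 as the limit, equal plate weights, no well filter and both covariates. With 1 plate left out in turn they were -20.6 to -15.9 points for Ly6a, -20.5 to -11.9 for Slamf1, 15.2 to 17.4 for Cd34 and -24.9 to -20.1 for the pattern. Those of Kit (-0.57 to 1.58) and Cd48 (0.0060 to 1.32) stayed near 0. Levels depended on the scale. Without centring the differences were 0.65 for Kit, -1.02 for Ly6a, -0.13 for Slamf1 and 0.31 for Cd34. Against Actb and Gapdh they were 0.53, -1.18, -0.17 and 0.27. Over all cells with undetected reactions at the limit they were 0.22, -3.32, -2.05 and 1.45, and for Ly6a at Ct 18 the value was -1.27. Levels across all cells hold the differences in share by construction. The within-plate SD of the Kit level, lower by -0.11 at 5 weeks, was higher by 0.090 without centring and by 0.030 against Actb and Gapdh. The SD of the Ly6a level, higher by 0.48, was -0.16 at Ct 18, which leaves out its 6 late products. Of the other values that moved, 18 concerned SDs or correlations. No paired analysis was possible because the labels name no animal and plate numbers do not link the chase times. With 1 sample per time, the spread between mice is unknown.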
